A study of Mus musculus with 24 samples.

Results

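The 37 genes described here are those of the exocrine acinar cell of the pancreas, comprising digestive enzymes and their inhibitors, secretory granule proteins and the transcription factors that maintain the acinar state. They were measured in preparations of pancreatic islets, into which exocrine tissue can be carried over. Probes were taken by the gene name given on the array. Of the 37 genes, 35 had a probe and all 35 of these were well above background on at least 4 of 24 arrays, so that 35 of the 22965 genes tested were members. The trypsinogen genes Prss3 and Try10 had no probe under those names and were not analysed here.

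The islets came from male C57BL6/J mice, here BL6, and male C57BLKs/J mice, here BLKS, aged 8 weeks at entry. Each strain received chow (fat at 18% of kcal), a high-fat diet (HFD, fat at 42% of kcal) or the same HFD with the PPAR-gamma agonist pioglitazone at 140 mg per kg diet. This gave 6 groups of 4 mice, with 1 single-colour array per mouse. The sample labels give 12 weeks of feeding and the series design gives 16 weeks, and islets were freed from the pancreas by perfusion with collagenase. The question of the series is the divergence of the 2 strains on HFD.

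Acinar cells make most of the protein of the pancreas. They secrete the proteases as inactive zymogens, activated in the gut by trypsin, while amylase, pancreatic lipase and ribonuclease are secreted in active form. The enzyme genes are switched on together by the PTF1 complex, in which the acinar factor PTF1A pairs with an E protein and with RBPJL, while BHLHA15 (MIST1) organises the secretory apparatus and NR5A2 supports enzyme transcription. Islets are separated from this tissue by digestion and picking, and the cells left attached contribute acinar RNA to an islet sample.

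Levels are log2 processed intensities relative to the 75th percentile of each array, so a level of 0 is the intensity at that percentile, which was between 218 and 403 intensity units. Endocrine identity was checked with Ins1, Ins2, Iapp, Gcg, Sst, Ppy, Chga and Pdx1, whose mean level was between 7.89 and 8.80 on the 24 arrays. The arrays lay on 4 slides. Slide 1 held BL6 on chow and HFD, and slide 3 held BLKS on HFD and pioglitazone. Slide 2 had 3 arrays of BL6 with pioglitazone and 3 of BLKS on chow. Slide 4, scanned on a different day from the other 3, held the remaining arrays, BL6 pioglitazone mouse 4 and BLKS chow mouse 3. Under each diet the strains shared no slide, so strain and slide cannot be told apart in the strain comparisons. Slides 2 and 4 held both strains, but on different diets.

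The acinar genes varied more between mice of 1 group than nearly all other genes on the array. Their pooled standard deviation within groups had a median of 2.50 on the log2 scale, against 0.21 over all genes tested. Of the 35 members, 33 lay above the 90th percentile of all genes in this spread and 26 above the 99th. In bulk samples such as these, fewer acinar cells and less RNA per acinar cell cannot be told apart.

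Averaged over the 35 genes, the level was 0.60, 5.10, 2.00 and -1.84 in BL6 mice 1 to 4 on chow, and 4.08, 2.07, 4.17 and 1.71 on HFD. With pioglitazone the 4 BL6 mice stood at 2.70, 3.48, 3.93 and 3.20. BLKS mice on chow stood at -3.54, 4.41, 0.98 and 3.26, on HFD at 3.62, 2.76, 5.50 and 2.70, and with pioglitazone at 0.61, 3.52, 5.42 and 5.39. All 6 groups overlapped, and 2 chow arrays, BL6 mouse 4 and BLKS mouse 1, lay below the 22 others, whose lowest mean was 0.60. On these 2 arrays 28 and 18 of the 35 members were well above background, compared with 33 to 35 on the 22 others. The endocrine mean was 8.39 and 8.63 on the same 2 arrays.

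**Figure D1:**
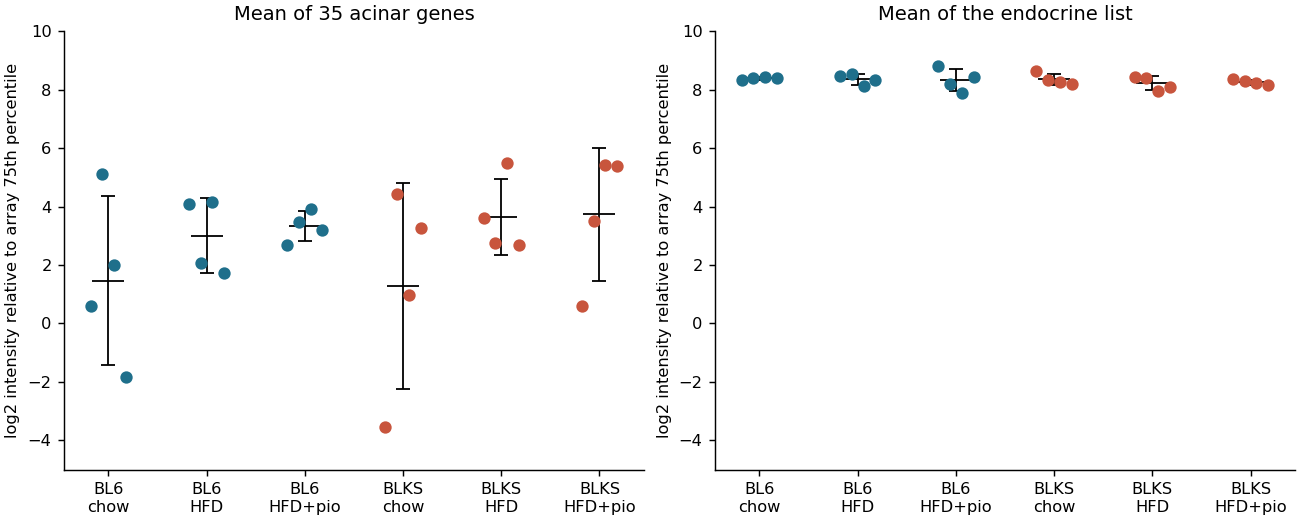
Mean log2 level of the 35 acinar genes (left) and of the 8 endocrine genes (right) in each mouse, by strain and diet; points are mice (blue BL6, red BLKS), the long tick and bars are the group mean and SD of 4 mice. The acinar mean runs from -3.54 to 5.50 while the endocrine mean stays between 7.89 and 8.80.

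Pancreatic amylase Amy2a5 (mm9 chr3:113084781-113084840), which cleaves starch, was at 6.28, 9.19, 8.25 and 3.44 in BL6 on chow, at 9.32, 8.45, 9.08 and 7.81 on HFD, and at 8.73, 8.93, 8.86 and 9.07 with pioglitazone. In BLKS it was at 0.66, 9.01, 6.77 and 8.73 on chow, at 9.14, 8.56, 8.92 and 8.33 on HFD, and at 6.90, 8.98, 9.32 and 8.78 with pioglitazone. Low values were found mainly in chow mice, and the highest values of the 6 groups lay close together, between 9.01 and 9.32. A second, dimmer Amy2a5 probe spanned 11.99 log2 units over the 24 arrays, from -3.30 to 8.69, whereas the first spanned 8.67.

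The serine endopeptidases cut dietary protein within the chain. Elastase Cela1 ranged from 0.40 to 7.67 with a median of 4.89 over the 24 arrays, and chymotrypsinogen Ctrb1 ranged from -0.90 to 8.79 with a median of 6.49. Cela2a had a wider range, from -6.55 in BLKS chow mouse 1, where it was not well above background, to 6.98 in BL6 chow mouse 2. Cela3b and Ctrl ranged over 11.83 and 9.42 log2 units. Chymotrypsin C, Ctrc, differed from these genes by strain and is described with the strain comparison.

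The trypsinogens are the zymogens whose activation starts the whole cascade. Prss2 was at 3.15, 7.73, 4.68 and -0.68 in BL6 on chow, at 7.21, 4.63, 7.13 and 4.05 on HFD, and at 5.56, 6.12, 6.89 and 6.17 with pioglitazone. In BLKS it was at -5.11, 6.77, 2.65 and 5.95 on chow, at 6.22, 5.21, 8.26 and 5.20 on HFD, and at 2.68, 6.14, 8.11 and 7.99 with pioglitazone. The lowest of these, in BLKS chow mouse 1, was not well above background, and the groups overlapped throughout. Prss1, Try4 and Try5 followed the same order of arrays at their ends, each with its lowest value in BLKS chow mouse 1 and its highest in BLKS HFD mouse 3.

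How far these trypsinogens were measured apart depends on their probes, since the genes are close paralogues. The second Prss1 probe (mm9 chr6:41412628-41412687) and the Prss2 probe (mm9 chr6:41473937-41473996) lie at a corresponding place of the 2 transcripts. Capitals mark bases that are the same in both when they are aligned without gaps.
Prss1 probe: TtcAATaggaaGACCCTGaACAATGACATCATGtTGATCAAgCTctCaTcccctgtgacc
Prss2 probe: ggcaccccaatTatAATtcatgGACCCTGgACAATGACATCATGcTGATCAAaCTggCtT
They matched at 36 of 49 aligned bases (73.5%), with a longest identical run of 14. The Try4 and Try5 probes matched at 43 of 45 aligned bases (95.6%), and the first 30 aligned bases differ at 1 place, T7C counted from 1 at the 5′ end of the Try4 probe segment.
Try4 probe, 30 bases: CATTGCtGCAAACTAAGCATCCCTTTGAAG
Try5 probe, 30 bases: CATTGCcGCAAACTAAGCATCCCTTTGAAG
The Try4 and Try5 values can therefore share signal, and counts of members given here include both. The brighter Prss1 probe matched a probe of the trypsin family gene Gm5409 at 45 of 48 bases, so Prss1 is also uncertain in this respect.

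The exopeptidases trim amino acids from the chain end. Carboxypeptidase Cpa1 ranged from -2.32 to 8.55 with a median of 6.14, and Cpb1 ranged from -4.53 to 8.86 with a median of 6.63. Both were lowest in BLKS chow mouse 1, where Cpb1 was not well above background.

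Fat digestion was represented by 6 genes. Pancreatic lipase Pnlip ranged from -5.67 to 7.88 (median 5.45), its cofactor colipase Clps from -1.29 to 8.01 (median 5.71), and carboxyl ester lipase Cel from -1.79 to 8.40 (median 5.79). Pnliprp1, a lipase-related protein, had the widest span of the 35 members at 13.82 log2 units, with its lowest array not well above background. Pnliprp2 and the phospholipase Pla2g1b spanned 9.72 and 8.34. All 6 genes were lowest in 1 of the 2 low chow arrays.

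Among the remaining secreted products, the ribonuclease Rnase1 ranged from -3.68 to 5.21 and the trypsin inhibitor Spink3, which guards against premature activation, from -3.92 to 4.88 (median 2.17). Syncollin Sycn, a zymogen granule membrane protein, ranged from -1.72 to 7.77 (median 5.67). The granule genes Zg16, Gp2 and Cuzd1 spanned 12.47, 12.28 and 8.96 log2 units. The serpin Serpini2 spanned 9.25.

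Of the 4 transcription factors, Ptf1a and Rbpjl varied with the enzymes between arrays, and Bhlha15 and Nr5a2 varied little within groups. Ptf1a was well above background on 10 of 24 arrays and was at -6.48, -2.40, -5.01 and -6.17 in BL6 on chow, at -3.42, -5.65, -2.94 and -6.27 on HFD, and at -5.80, -4.49, -4.29 and -3.85 with pioglitazone. In BLKS it was at -6.47, -2.85, -5.51 and -4.80 on chow, at -3.81, -4.90, -1.74 and -5.97 on HFD, and at -5.58, -4.92, -1.81 and -1.73 with pioglitazone. It was high on arrays where the enzymes were high, such as BL6 chow mouse 2 and BLKS HFD mouse 3, and the groups overlapped.

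Rbpjl, its partner, ranged from -4.56 to 0.68 (median -2.08) and had its extremes in BL6 chow mice 4 and 2. Bhlha15 and Nr5a2 did not share this spread. Bhlha15 stayed between 3.13 and 4.82 and Nr5a2 between -3.26 and -0.93 over all 24 arrays, with both well above background on each array. Their standard deviations within groups were 0.31 and 0.19, at the 70th and 41st percentiles of all genes.

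The other members were Klk1, a tissue kallikrein, which ranged from -5.60 to 5.37 (median 2.34), and the scavenger receptor protein Dmbt1, which ranged from -3.71 to 6.18 (median 3.77). The water channel Aqp8, of the acinar apical membrane, moved over a smaller span, from -4.77 to -1.87 (median -3.61). Aqp12 ranged from -6.47 to 0.39, and the endoplasmic reticulum protein Erp27 from 1.22 to 3.43. In all, 24 of the 35 members had their lowest value in BLKS chow mouse 1 and 8 in BL6 chow mouse 4. The exceptions were Ptf1a, Bhlha15 and Nr5a2.

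**Figure D2:**
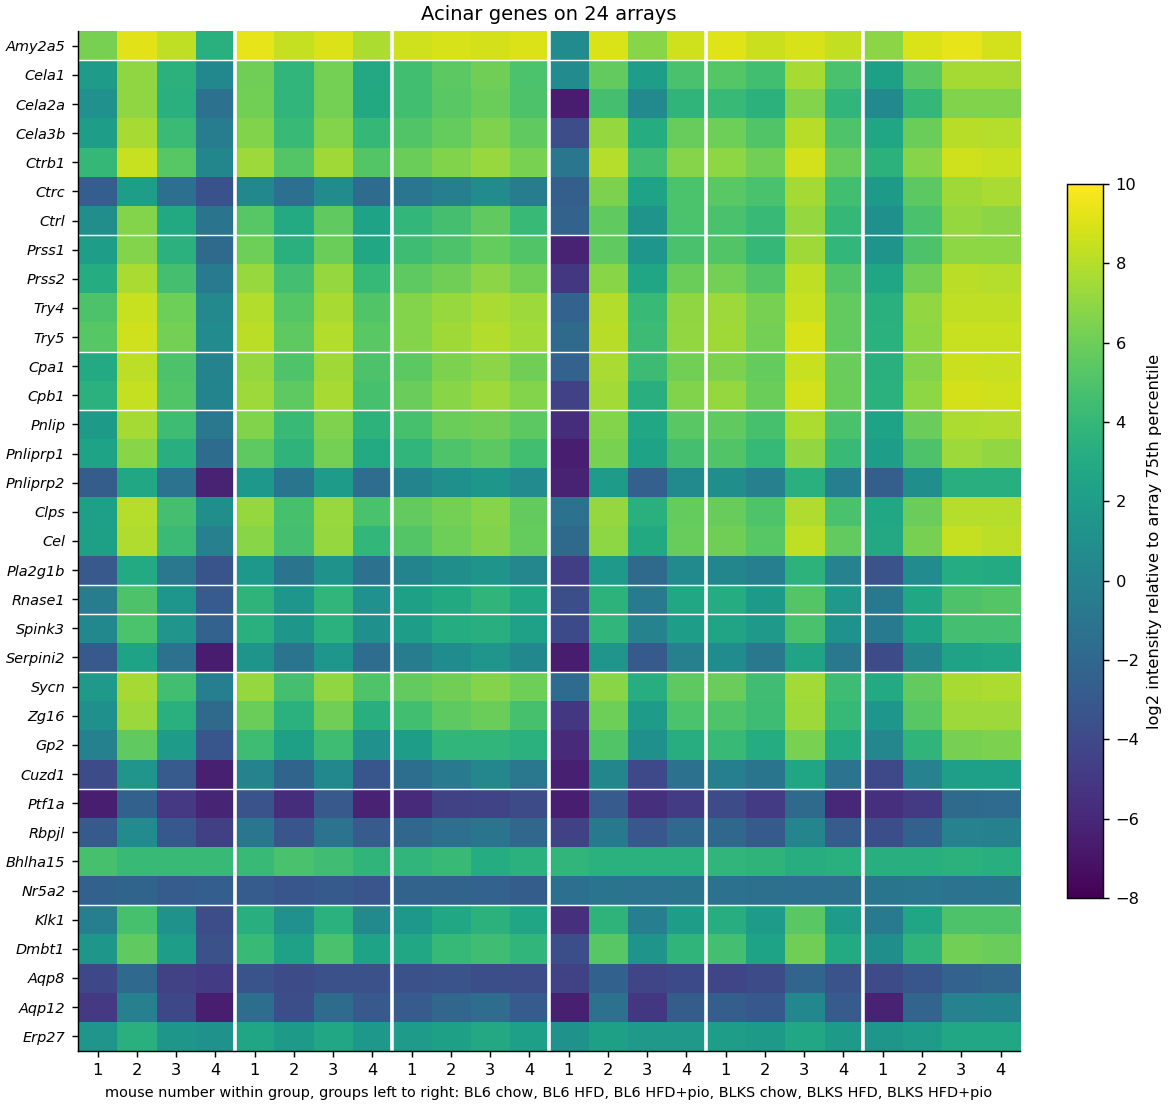
Log2 level relative to the array's 75th percentile for the 35 acinar genes (rows, grouped by role) on the 24 arrays (columns, grouped by strain and diet); brighter colours are higher levels. Columns BL6 chow 4 and BLKS chow 1 are dark for most genes, Ctrc is brighter in BLKS columns, and Bhlha15 and Nr5a2 hardly vary between columns of 1 group.

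The enzymes rose and fell together from mouse to mouse. With group means removed, the first principal component of the 35 genes held 96.2% of their variance, and 89.0% with each gene scaled to unit variance. Of 22965 genes, 55 had a correlation within groups above 0.9 with the mean of the 35 members, and 30 of these were members. That mean includes each member itself, which favours members in this count. When each member was compared with the mean of the other members, Klk1 (r = 0.998), Cel (0.997) and Ctrb1 (0.995) lay closest to it. Ptf1a (0.832) and Aqp8 (0.783) lay further off, and Nr5a2 (0.471) and Bhlha15 (-0.229) lay lowest of the members. Among all 22965 genes Nr5a2 ranked 252nd and Bhlha15 17230th in the correlation with the mean of all 35 members, themselves included. These correlations run over 24 arrays, share the same RNA and scaling, and are a description.

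Genes also differed in how steeply they followed the mean. Per log2 unit of the members' mean within groups, Pnliprp1 and Prss1 changed by 1.34 units and Pnlip by 1.33, whereas Amy2a5 changed by 0.81. Rbpjl and Ptf1a changed by 0.65 and 0.63, Aqp8 by 0.30 and Erp27 by 0.24. Nr5a2 and Bhlha15 had slopes of 0.040 and -0.032. Pnliprp1, Prss1 and Pnlip were not well above background in BLKS chow mouse 1. Without that array, an alternative added after seeing the data, their slopes were 1.15, 1.21 and 1.16, that of Amy2a5 was 0.61 and that of Ptf1a 0.79. Without BL6 chow mouse 4 as well, Amy2a5 had 0.48, Ptf1a 0.94 and Rbpjl 0.83, so the slopes depended on the 2 low arrays. Ptf1a was well above background on 10 arrays and Aqp8 on 21. The Amy2a5 slopes are those of its brighter probe, and the dimmer probe was not fitted. In each group the brighter probe had the smaller SD, for example 0.14 against 0.68 in BL6 with pioglitazone. Over the arrays the brighter probe spanned 8.67 log2 units and the dimmer probe 11.99.

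**Figure D3:**
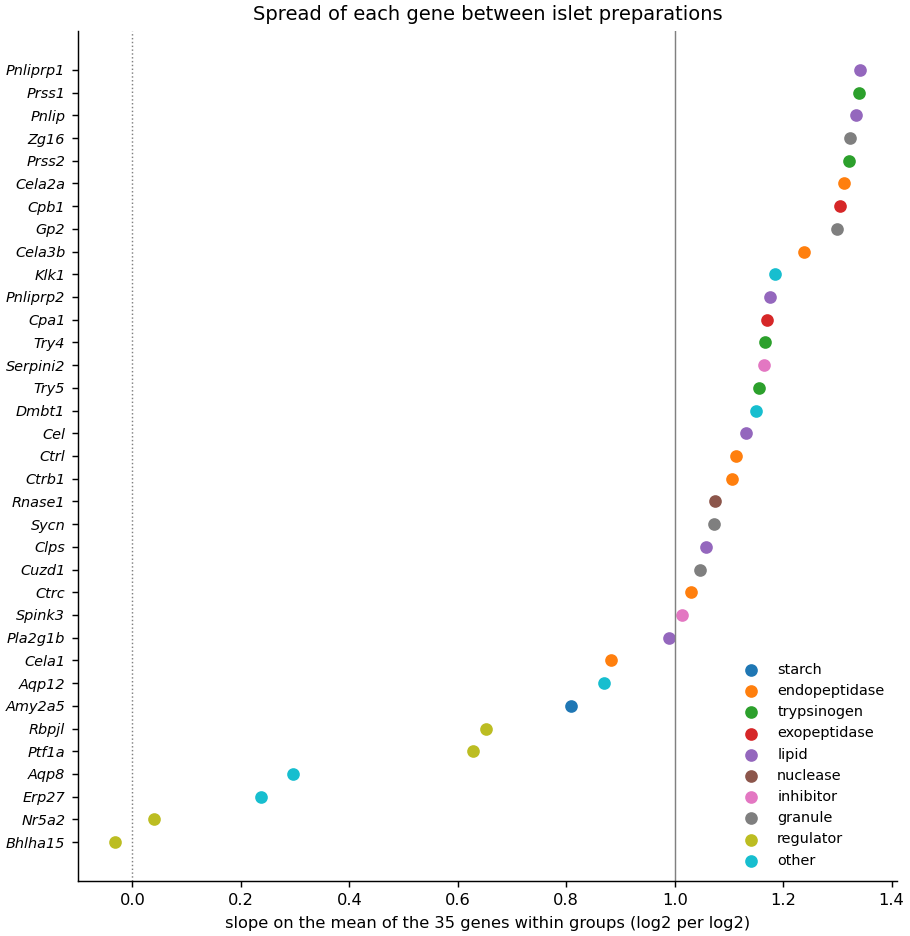
Slope of each gene's log2 level on the mean of the 35 genes after removing group means, over 24 arrays, coloured by role. Enzymes and granule proteins lie mostly between 0.88 and 1.34, Ptf1a and Rbpjl near 0.63 and 0.65, and Nr5a2 and Bhlha15 near 0. The mean includes each gene itself, so the slopes are relative to each other.

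Set against Amy2a5 across the 24 arrays, 32 of the 34 other members had an adjusted permutation p below 0.05 for both coefficients, in a family of 45 genes (two-sided, 100000 resamples, Benjamini-Hochberg). For Prss2, Pearson's r was 0.962 and Spearman's rho 0.886 (permutation p = 1e-05 for both, the smallest the resampling can give, adjusted p = 1.6e-05 and 1.7e-05). Its r came to 0.881 once the 2 arrays at the largest distance from the Amy2a5 median were left out, 0.958 within BL6, 0.967 within BLKS, and 0.961, 0.996 and 0.851 within slides 1, 2 and 3. Bhlha15 (r = -0.177, rho = -0.081, adjusted permutation p = 0.5 and 0.8) and Nr5a2 (r = -0.0087, rho = 0.103, adjusted permutation p = 0.97 and 0.75) were the exceptions. Ctrc gave r = 0.513 over both strains but 0.819 within BL6 and 0.916 within BLKS (adjusted permutation p = 0.0057 over both).

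Of the 11 genes in that family that are not members, the acinar and islet lectin Reg1 had r = 0.938 and rho = 0.870 (adjusted permutation p = 1.6e-05 and 1.7e-05). Over the 24 arrays the other 10 lay between -0.317 for the fibrillar collagen Col1a1 and 0.221 for the macrophage lysozyme Lyz2. Their lowest adjusted permutation p was 0.17. They included the ductal markers Krt19, Sox9 and Spp1, the lymphocyte markers Cd79a and Cd3g, Pecam1, Ins2 and Gcg. Some varied by strain or slide. Ins2 and Gcg had r = -0.624 and -0.557 within BLKS but -0.026 and -0.064 within BL6. Pecam1 had -0.225, -0.236 and 0.837 within slides 1, 2 and 3. These parts were not tested.

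Outside the 37 genes, the 10 whose levels within groups were most like the members' mean over the 24 arrays were Klk1b24, Klk1b3, Klk1b4, Klk1b5, Egfbp2, Klk1b26, Klk1b8, Klk1b22, Reg1 and Pdia2, with r from 0.998 to 0.954. The first 8 are tissue kallikreins of the Klk1 cluster. Their probes overlap in sequence, for example Klk1 with Klk1b4 at 48 of 55 aligned bases and Klk1b26 with Egfbp2 at 55 of 55, so they are not independent of one another. Pdia2 is the protein disulphide isomerase of the pancreas.

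The promoters of members that moved together are shown because the PTF1 complex is known to bind an E box beside a TTTCCC box in acinar genes. RefSeq windows of 300 bases (250 before to 50 after the start, GRCm38.p6) were available for 29 of the 37 members. Both strands were searched for TTTCCC, for the E boxes CAGCTG and CACCTG, and for AAGGTCA, a nuclear receptor motif of the kind NR5A2 binds. The windows of Cela1, Ctrb1 and Prss1 hold both kinds of box, and that of Bhlha15, which did not vary with the enzymes, is shown beside them. These 4 are examples and do not stand for the members. Nr5a2, which also varied little within groups, holds both kinds of box. Pnlip, Gp2 and Sycn, which followed the other enzymes closely, hold no TTTCCC. The 250 bases before the start are given on the gene's strand, with these motifs in capitals.
Cela1 (chr15:100687921-100688170, minus strand): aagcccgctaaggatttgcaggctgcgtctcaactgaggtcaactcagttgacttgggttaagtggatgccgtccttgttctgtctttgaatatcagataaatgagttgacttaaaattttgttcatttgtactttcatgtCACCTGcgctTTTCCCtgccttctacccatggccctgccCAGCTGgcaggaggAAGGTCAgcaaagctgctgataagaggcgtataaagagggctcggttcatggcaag
Ctrb1 (chr8:111691011-111691260, minus strand): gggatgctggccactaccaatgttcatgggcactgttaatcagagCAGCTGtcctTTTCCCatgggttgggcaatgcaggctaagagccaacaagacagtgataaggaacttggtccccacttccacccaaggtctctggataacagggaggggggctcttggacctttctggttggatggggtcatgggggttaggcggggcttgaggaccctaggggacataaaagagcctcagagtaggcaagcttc
Prss1 (chr6:41458680-41458929, plus strand): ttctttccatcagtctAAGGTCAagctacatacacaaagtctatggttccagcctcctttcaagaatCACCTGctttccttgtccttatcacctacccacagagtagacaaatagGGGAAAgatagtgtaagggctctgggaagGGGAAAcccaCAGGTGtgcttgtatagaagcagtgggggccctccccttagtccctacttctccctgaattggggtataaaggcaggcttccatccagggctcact
Bhlha15 (chr5:144190036-144190285, plus strand): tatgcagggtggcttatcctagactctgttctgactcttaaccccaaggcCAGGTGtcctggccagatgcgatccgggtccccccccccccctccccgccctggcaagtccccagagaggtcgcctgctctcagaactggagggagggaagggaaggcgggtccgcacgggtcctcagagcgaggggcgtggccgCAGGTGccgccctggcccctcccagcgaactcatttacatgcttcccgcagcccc
In Cela1 the E box at -109 to -104 and the TTTCCC at -99 to -94 are separated by 4 bases, as are the boxes of Ctrb1 at -205 to -200 and -195 to -190, and those of Prss1, read on the other strand, at -96 to -91 and -106 to -101.

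By count, TTTCCC was in the window of 10 of 29 members (34.5%), compared with 25.2% of 32851 windows in the table. CAGCTG was in 7 (24.1%, compared with 16.3%), CACCTG in 17 (58.6%, compared with 20.2%) and AAGGTCA in 4 (13.8%, compared with 4.72%). TTTCCC together with either E box was in 9 members (31.0%, compared with 8.16%). The spaced form CANNTGNNNNTTTCCC was searched after the windows had been read and was in 3 members, Cela1, Ctrb1 and Prss1, and in 31 of all windows (0.0944%). With 1 more base between the boxes it was in 0 members. A match of letters is a description and not a site of binding.

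High-fat feeding left no acinar gene past the threshold in either strain, although most were higher on HFD. In BL6, 33 of 35 members were higher on HFD than on chow with a median log2 difference of 1.76, against -0.0011 over all genes, and 0 passed (limma, Benjamini-Hochberg over 22965 genes, threshold 0.05). Over all genes 10 passed (0.0435%). At an unadjusted p under 0.05 there was 1 member, Nr5a2, which was lower on HFD, compared with 5.46% of all genes. In BLKS 33 of 35 were higher with a median of 2.57, against -0.019 over all genes. Of the members 0 passed, compared with 18 of all genes (0.0784%). An unadjusted p under 0.05 was found for 0 members and 9.17% of all genes. The chow and HFD arrays of BLKS shared no slide, so diet and slide cannot be told apart there. In BL6 both groups lay on slide 1.

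Sycn stood at 3.39 ± 3.41 on chow and 5.97 ± 1.28 on HFD in BL6 (SD, n = 4), a difference of 2.58 ± 1.61 (SE, limma adjusted p = 0.974). Amy2a5 differed by 1.87 ± 1.32 in BL6 and 2.45 ± 1.32 in BLKS (adjusted p = 0.974 and 0.62). In BLKS the lowest p-values were those of Cela2a at 3.93 ± 1.97 (adjusted p = 0.574) and Cpb1 at 3.73 ± 1.98 (adjusted p = 0.608). Chow values of these genes enclosed or overlapped the HFD values in both strains.

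Over the 6 lipid genes the median difference was 2.02 in BL6 and 2.72 in BLKS, and over the 4 trypsinogens 1.73 and 3.21. The 4 transcription factors had medians of 0.20 and 0.33. Without BL6 chow mouse 4 and BLKS chow mouse 1, an alternative chosen after seeing the data, the median over the 35 members was 0.52 in BL6 and 0.75 in BLKS and 0 members passed. Leaving out BL6 chow mouse 4 alone gave 0.52, and leaving out BLKS chow mouse 1 alone gave 0.75, while other single arrays left out gave medians up to 3.13 and 3.71.

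Bhlha15 hardly differed between HFD and chow, by -0.024 ± 0.21 in BL6 and -0.032 ± 0.21 in BLKS (SE, limma adjusted p = 0.994 and 0.982). Nr5a2 (mm9 chr1:138740903-138740962) had a lower mean on HFD in both strains. In BL6 Nr5a2 was at -2.41, -2.18, -2.75 and -2.63 on chow and at -2.73, -3.18, -2.92 and -3.26 on HFD. The groups overlapped slightly and differed by -0.53 ± 0.13 (SE, limma adjusted p = 0.239). In BLKS the difference was -0.16 ± 0.13 (adjusted p = 0.795).

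No acinar gene passed the threshold when pioglitazone was added to HFD. In BL6 the median difference was 0.37 over the 35 members, 32 of them higher, and 0 passed, compared with 44 of all genes (0.192%). In BLKS it was 0.10, with 23 higher, and 0 passed, compared with 1 of all genes (0.00435%). With single mice left out the median ran from -0.096 (without HFD mouse 4) to 0.75 in BL6. In BLKS it ran from -0.53 to 1.26 and was below 0 without HFD mouse 2 or 4 or pioglitazone mouse 3 or 4. At an unadjusted p under 0.05 there were 2 members in BL6 and 1 in BLKS, compared with 10.4% and 4.16% of all genes. The interval of single members was wide, for example -0.24 ± 1.32 (SE) for Amy2a5 in BLKS. This SE pools the spread of all 6 groups, the chow groups included. The SD of Amy2a5 in BLKS was 3.89 on chow, 0.36 on HFD and 1.09 with pioglitazone.

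Nr5a2 again had the smallest p of the members. With pioglitazone it was at -2.29, -2.26, -2.31 and -2.72 in BL6, above each of the 4 HFD arrays, a difference of 0.63 ± 0.13 (limma adjusted p = 0.0585). In BLKS it was at -1.27, -1.36, -1.43 and -1.32 on HFD and at -1.02, -0.93, -1.12 and -1.08 with pioglitazone, without overlap, a difference of 0.31 ± 0.13 (adjusted p = 1). Bhlha15 in BL6 differed by -0.65 ± 0.21 (adjusted p = 0.278), from 4.10, 4.82, 4.47 and 3.78 to 3.84, 4.10, 3.13 and 3.50.

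The Nr5a2 difference in BL6 passed without BL6 HFD mouse 1 (adjusted p = 0.0323), without BL6 pioglitazone mouse 4 (0.0224), with slide as a random block (0.046) and with only probes detected on all 24 arrays (0.0409). It also passed with the members' mean as a covariate (0.0444). Under every other alternative, including each other mouse left out, it did not pass. BL6 HFD and BL6 pioglitazone arrays lay on different slides, and pioglitazone mouse 4 was the only array of its group on slide 4 and its scan day. A list of 10 lymphocyte markers had array means between -3.18 and 1.88 in BL6 on HFD and between -3.04 and 3.05 with pioglitazone, and their part in the result was not tested.

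Whether the strains responded differently was asked by the interaction of strain and diet. For HFD against chow the members had a median interaction of 0.76, 0 passed, and so did 0 of all genes (0%). An unadjusted p under 0.05 was found for 0 members and 8.44% of all genes. For pioglitazone the median was -0.31 and 0 members passed, compared with 2 of all genes (0.00871%). Here 0 members and 7.46% of all genes were at an unadjusted p under 0.05. Slide cannot be told apart from either interaction. It differed between chow and HFD in BLKS only, and between HFD and pioglitazone in BL6 only. With single mice left out the HFD median ran from -0.89 (without BLKS chow mouse 1) to 2.01 (without BL6 chow mouse 4) and was also below 0 without BL6 chow mouse 2. The pioglitazone median ran from -0.91 to 0.86 and was above 0 without BL6 HFD mouse 2 or 4, BLKS HFD mouse 3 or BLKS pioglitazone mouse 1. The smallest p in both was that of Nr5a2, at 0.37 ± 0.19 (adjusted p = 0.619) and -0.32 ± 0.19 (adjusted p = 0.747).

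Between the strains, which shared no slide under the same diet, 3 of the 35 members passed under at least 1 diet. Chymotrypsin C (Ctrc) and Nr5a2 were higher in BLKS, and Bhlha15 was lower in BLKS on chow and on HFD. Within groups Nr5a2 and Bhlha15 had slopes of 0.040 and -0.032 on the members' mean. Whether their signal in these samples comes from acinar cells was not tested. On chow 3 of 35 members passed, compared with 9547 of all genes (41.6%), on HFD 3 compared with 11466 (49.9%), and with pioglitazone 2 (Ctrc and Nr5a2) compared with 10520 (45.8%). Their median differences were -0.17, 0.48 and 0.32, with the median over all genes between -0.049 and -0.035. Single mice set the sign of these medians. On chow it ran from -1.39 to 1.40 with 1 mouse left out and was above 0 without BL6 mouse 2 or BLKS mouse 1. On HFD it ran from -0.18 (without BLKS mouse 3) to 0.92. With pioglitazone it ran from -0.30 to 1.45 and was below 0 without BLKS mouse 3 or 4.

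Ctrc encodes a chymotrypsin that activates and degrades trypsinogen. Its brighter probe (mm9 chr4:141394154-141394213) was at -2.64, 2.04, -1.40 and -3.46 in BL6 on chow, at 0.39, -1.45, 0.71 and -1.64 on HFD, and at -0.95, -0.22, 0.72 and -0.40 with pioglitazone. In BLKS it was at -2.55, 6.46, 2.46 and 4.87 on chow, at 5.37, 4.82, 7.58 and 4.58 on HFD, and at 1.84, 5.46, 7.42 and 7.69 with pioglitazone. The strains overlapped on chow through BLKS mouse 1, the array with the lowest acinar mean, and did not overlap on HFD or with pioglitazone.

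The Ctrc difference was 4.18 ± 1.56 (SE) on chow (limma adjusted p = 0.0373), 6.09 ± 1.56 on HFD (adjusted p = 0.00291) and 5.82 ± 1.56 with pioglitazone (adjusted p = 0.00442). A second probe 5′ of the first in the transcript (mm9 chr4:141400953-141401012) differed by 3.92, 7.23 and 6.62 (adjusted p = 0.0308, 0.000254 and 0.000654). On HFD this probe was well above background in 2 of 4 BL6 mice, so its difference there rests in part on signals at background. Its sequence is shown because it reads a part of the transcript apart from the first probe.
Ctrc second probe: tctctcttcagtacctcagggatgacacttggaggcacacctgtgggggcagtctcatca
In the RefSeq table of the C57BL/6J assembly GRCm38.p6, 36 of the 37 members are listed, 35 as protein coding and 1, Ctrc, as a transcribed pseudogene. As background, the C57BL/6 allele of Ctrc is known to carry a frame-shifting deletion. Whether BLKS mice carry it was not tested here.

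On chow the Ctrc call depended on single arrays, with an adjusted p between 0.0583 and 0.149 when BL6 mouse 1, 3 or 4 or BLKS mouse 2, 3 or 4 was left out, 0.056 with no filter and 0.125 with only the 8 chow arrays in the fit. Over the 24 arrays with group means removed, Ctrc followed the mean of the other members at r = 0.982. Against Amy2a5 its r was 0.819 within BL6 and 0.916 within BLKS.

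Nr5a2 did not overlap between the strains under any diet. Its 12 BL6 values lay between -3.26 and -2.18, and its 12 BLKS values between -1.43 and -0.93. The difference was 1.31 ± 0.13 on chow, 1.68 ± 0.13 on HFD and 1.36 ± 0.13 with pioglitazone (limma adjusted p = 9.54e-08, 2.3e-09 and 5.56e-08). Another Nr5a2 probe was well above background on 1 of 24 arrays and was not used.

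Bhlha15 was at 4.74, 4.20, 4.10 and 4.22 in BL6 and at 3.86, 3.53, 3.53 and 3.48 in BLKS on chow, without overlap. The difference was -0.72 ± 0.21 on chow and -0.73 ± 0.21 on HFD (limma adjusted p = 0.0105 and 0.00809). With pioglitazone it was -0.27 ± 0.21 (adjusted p = 0.328).

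On slide 2, the 3 BLKS chow arrays and the 3 BL6 pioglitazone arrays, which differ in diet as well, gave a BLKS minus BL6 difference of 1.08 for Nr5a2 without overlap, 3.08 for Ctrc with overlap and -0.068 for Bhlha15 with overlap. A list of 12 ductal markers moved with strain. Its array mean was between -2.03 and -0.49 in BL6 and between -0.23 and 0.54 in BLKS, and 8, 7 and 7 of 12 markers passed as higher in BLKS on chow, HFD and pioglitazone and 0 as lower, beside 41.6%, 49.9% and 45.8% of all genes passing in either direction. Krt19 differed by 3.94 ± 0.67 on chow (adjusted p = 7.53e-05). Its part in these results was not tested.

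**Figure D4:**
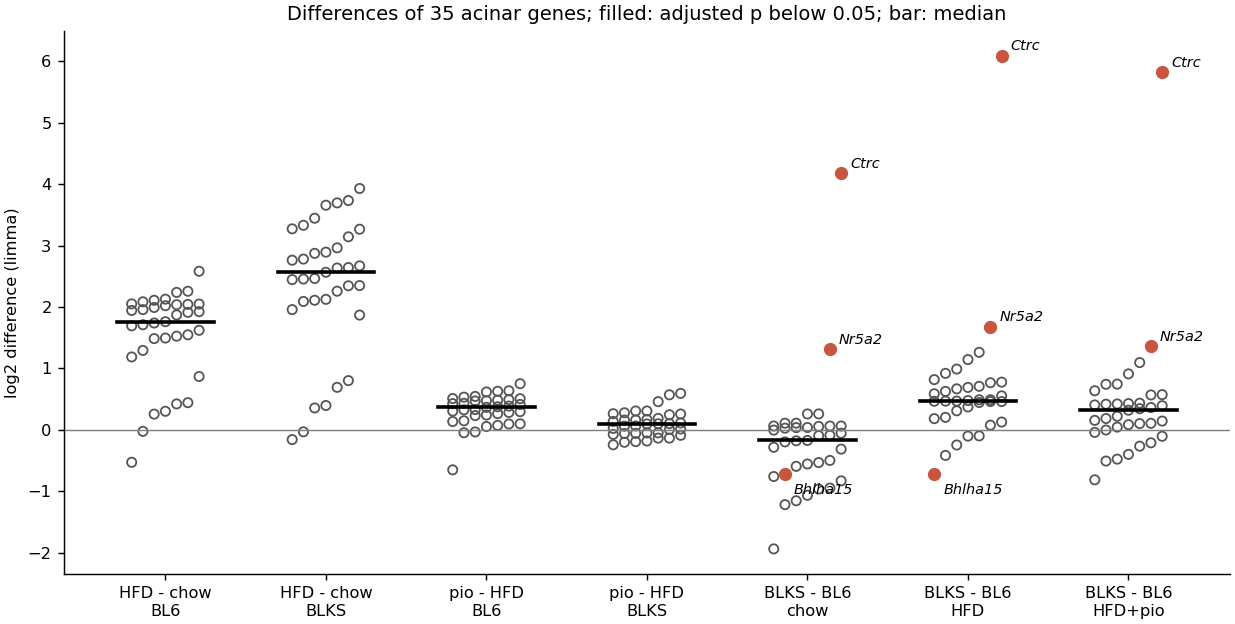
Log2 differences of the 35 acinar genes in 7 comparisons, 1 point per gene with the horizontal bar at the median; filled points passed the threshold of 0.05 after adjustment over all genes. The HFD columns have medians of 1.76 and 2.57 with no filled point, and the strain columns have Ctrc at 4.18 to 6.09 and Nr5a2 at 1.31 to 1.68.

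With the acinar mean of each array held equal, as a covariate added after seeing the data, Ctrc differed by 4.37 ± 0.30 on chow, 5.44 ± 0.30 on HFD and 5.40 ± 0.30 with pioglitazone (limma adjusted p = 7.95e-10, 3.97e-11 and 4.72e-11). Nr5a2 kept its differences at 1.32, 1.65 and 1.34. Cela2a was then lower in BLKS under all 3 diets, by -1.69 ± 0.26, -1.08 ± 0.26 and -1.35 ± 0.26 (adjusted p = 2.64e-05, 0.0019 and 0.000275).

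In that fit 6 members passed on chow, compared with 41.4% of all genes, 6 on HFD (49.2%) and 5 with pioglitazone (45.2%). Beside Ctrc, Nr5a2 and Cela2a these were Bhlha15, Prss1 and Prss2 on chow, Bhlha15, Clps and Sycn on HFD, and Try4 and Try5 with pioglitazone, all of them lower in BLKS except Ctrc and Nr5a2. Nr5a2 also passed for pioglitazone in BL6 (adjusted p = 0.0444, compared with 0.152% of all genes). The covariate holds each gene as 1 of its 35 terms, so the adjusted differences of the 35 members must cancel out in each comparison. Large positive differences such as that of Ctrc are then offset by lower values in other members. The lower direction of those members, Cela2a among them, is therefore in part fixed by the fit.

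**Figure D5:**
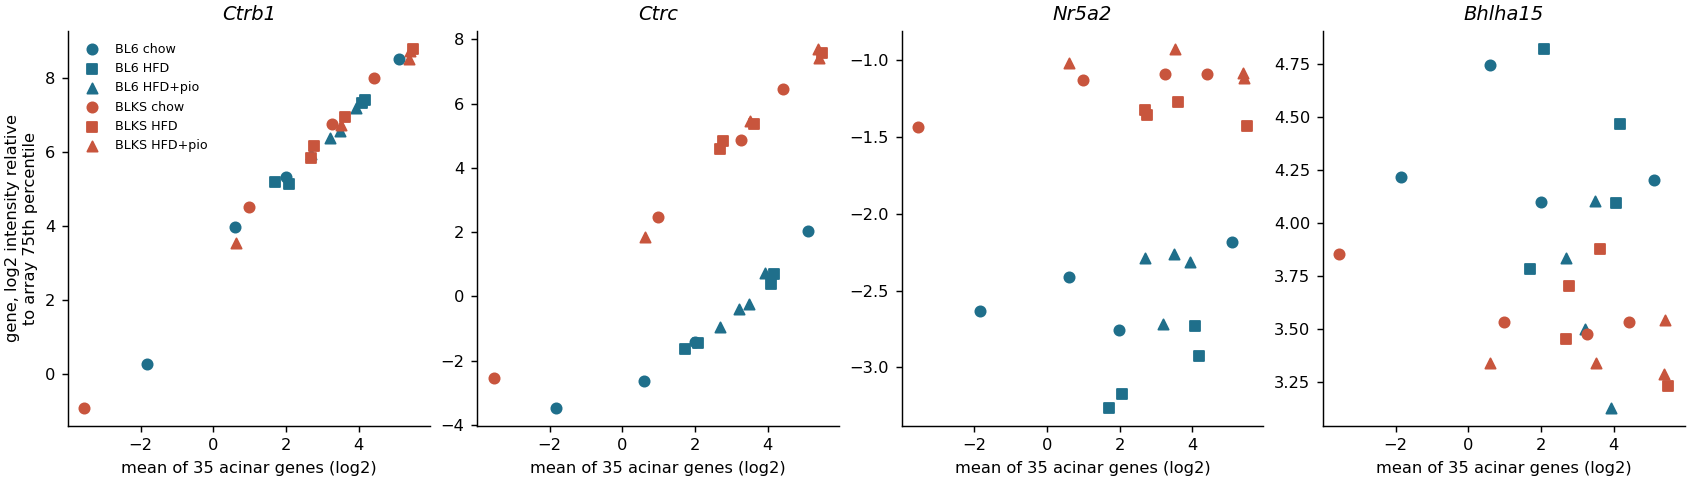
Log2 level of Ctrb1, Ctrc, Nr5a2 and Bhlha15 against the mean of the 35 acinar genes on each of 24 arrays (blue BL6, red BLKS; circles chow, squares HFD, triangles HFD with pioglitazone). Ctrb1 forms 1 line for both strains, Ctrc forms 2 lines with BLKS above BL6, and Nr5a2 forms 2 level bands at -3.26 to -2.18 and -1.43 to -0.93.

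Genes of the acinar programme outside the 37 were read from 3 lists. Of 16 measured further acinar genes, such as Pdia2 and the Reg family, 0 passed in any diet comparison (limma), with at most 1 at an unadjusted p under 0.05. The share of all genes at that p was between 4.16% and 10.4% in the diet comparisons. Between the strains Gnmt alone passed, at 0.40 ± 0.15 with pioglitazone (adjusted p = 0.0388). Of all genes 41.6%, 49.9% and 45.8% passed between the strains on chow, HFD and pioglitazone. Of 18 genes for stimulated secretion, 0 passed between diets, with at most 2 at an unadjusted p under 0.05. Between the strains 2, 3 and 6 were higher and 5, 6 and 5 lower in BLKS on chow, HFD and pioglitazone, beside 41.6%, 49.9% and 45.8% of all genes, a share near that of the list on chow and HFD. The inositol trisphosphate receptors Itpr2 and Itpr3, which release calcium on stimulation, were lower on chow by -1.26 ± 0.097 and -0.81 ± 0.085, and the muscarinic receptor Chrm3 was higher by 0.76 ± 0.17 (adjusted p = 1.95e-09, 1.58e-07 and 0.0013). Of 8 further regulators 0 passed between diets, with at most 1 at an unadjusted p under 0.05. Between the strains 2, 4 and 4 of them were higher and 1, 1 and 1 lower in BLKS, beside the same shares of all genes. On chow Foxa2 was lower in BLKS by -1.36 ± 0.14. Xbp1 and Rbpj, the ubiquitous counterpart of Rbpjl, were higher there by 0.47 and 0.52. These genes are also expressed in islet endocrine cells.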

How the data were processed

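RNA was amplified from the islets of 24 mice and given a Cy3 label, per the labels' protocols. Arrays were read with Agilent Feature Extraction 10.7.3.1, per the file headers. The processed intensity deposited for each spot was background-subtracted and detrended by that software, per the file headers, with no normalization between arrays. Raw and local background intensities, also deposited, entered 1 alternative. The authors' table gives a deposited linear ratio, processed intensity over the array median, of which 0 columns were unmapped. Genome coordinates in the files are on mm9.

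Spots flagged as outliers were left out (55 of 55681 probes), the log2 values of a probe's spots were averaged, and each array's 75th percentile was subtracted. Probes well above background on at least 4 arrays were kept (32746), and the brightest stood for its gene, giving 22965 genes. No member spot was saturated or flagged. The 35 members on the array had 44 probes, and 9 of them had 2.

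The limma fit (version 3.58.1, lmFit and eBayes, R 4.3.3, data.table version 1.17.8) gave each of the 6 groups its own mean and used all 24 arrays for 9 contrasts, with Benjamini-Hochberg adjustment over all genes at 0.05. Errors called SE and all adjusted p-values of single genes come from it. The fit holds 1 spread per gene for all 6 groups, although the group SDs of members such as Amy2a5 differed. Correlations used permutation tests in Python 3.11.15 with numpy 2.4.6 and scipy 1.17.1. The limma step and the permutation test were tested on simulated data. The number of arrays limits the precision. Named in full were 18 members set by role, members past the threshold and the 3 of smallest p in each contrast, and the rest are given by ranges.

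The members, lists and naming rule were chosen with earlier results of these data known. Alternatives were normexp (offset 50) followed by quantile normalization, the quantile step without normexp, no filter on detection, only probes detected on every array, averaging of a gene's probes, the authors' values, slide as a random block, a block for mouse number, a fit of only the arrays compared, and each mouse left out. The members' mean as a covariate, the second Ctrc probe leaving out the 2 lowest chow arrays and slopes without the low arrays were added after seeing the data. Protein sequences were not used here, and 1 gene of the list of further acinar genes is not reported here. Mouse numbers were not taken to pair the groups: in each pair of groups compared directly, at least 1 correlation of same-numbered deviations from group means was below 0.1.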

Additional observations from a re-analysis of the deposited data

Results flagged for a closer look

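In 120 sets of 4 mice, which are the members' mean and 19 named genes in each of 6 groups, 3 held a mouse far from the other 3, beyond the 95% limit of Dixon's ratio, and chance alone marks about 1 set in 20. Nr5a2 in BL6 pioglitazone mouse 4 stood at -2.72 while the other 3 mice lay between -2.31 and -2.26, and its array was the only 1 of the group on slide 4, scanned on another day. Nr5a2 in BLKS chow mouse 1 stood at -1.43, below the others at -1.13 to -1.09. Bhlha15 in BLKS chow mouse 1 stood at 3.86, above the others at 3.48 to 3.53. The last 2 come from the array with the lowest acinar mean.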

How the results depend on the processing

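Of 182 counts of members past the threshold, recomputed under the alternatives, 8 differed from the reported count by more than 1.5 times. For pioglitazone in BL6 the count was 1 (Nr5a2) in place of 0 with only probes detected on all 24 arrays, with slide as a random block and with the acinar mean as a covariate, and between 0 and 1 when single mice were left out (1 without HFD mouse 1 or pioglitazone mouse 4). With that covariate it was 6 on chow, 6 on HFD and 5 with pioglitazone between the strains. The strain count on chow was between 2 and 3 with single mice left out and 2 with no filter or with only the chow arrays, and Ctrc lost its call under 8 alternatives. The median over the members is a value with no test: 23 of 182 recomputed medians had the opposite sign to the reported one, 16 of them with a single mouse left out, and none of these were medians of HFD against chow within a strain. None of the 22 genes followed singly changed sign while past the threshold. With the mouse number as a replicate block, counts were 3, 3 and 2 between the strains and 0 for diet, as without it. In no pair of groups compared directly were all correlations of same-numbered mice above 0.1. The median r with Amy2a5 over 34 members was 0.910, and between 0.859 and 0.956 under other settings. The cause of these changes was not tested. Genes seen on few arrays, such as Ptf1a on 10, are limited by signal over background.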
